A study of Mus musculus with 19 samples.

Results

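Late-onset and early-onset lymphomas of mice wild type for Bptf were compared across all genes. The comparison takes 11 of the 19 tumour libraries in the series, chosen by the genotype and onset class in the labels: 5 late libraries (WT_late, onset at 28, 36, 38, 58 and 76 weeks) and 6 early ones (WT_early, 9 to 17 weeks). Both groups are labelled Bptf+/+; Em-Myc, so every mouse carried the Em-Myc transgene and no tumour-free or transgene-free tissue was in the comparison. The other 8 libraries came from Bptf+/delta; Em-Myc mice, which lack 1 copy of Bptf, with 4 late (HET_late, 30 to 66 weeks) and 4 early tumours (HET_early, 8 to 13 weeks); they share no library with the wild-type comparison. Tumours were taken when a mouse showed clinical signs, so the age of the mouse at harvest moves with the onset class, and the 2 cannot be told apart. Each library is 1 lymphoma, measured as bulk polyadenylated RNA from flash-frozen tissue, and holds tumour cells together with any other cells of the piece taken.

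In the Em-Myc strain the immunoglobulin heavy chain enhancer drives Myc in the B lineage, where the MYC protein raises ribosome production, nucleotide synthesis and cell division. Such mice pass through a phase of polyclonal B cell expansion before clonal tumours appear, and the tumours are known to range from pre-B to immature B cell stages. Loss of the ARF and p53 brake is a well-known event in them. Bptf encodes the large subunit of NURF, a remodeller that slides nucleosomes, and it serves MYC as a chromatin cofactor.

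Values below are normalised read counts: gene counts divided by 1 size factor per library, which leaves levels comparable between libraries for a gene but not between genes of different length. For WT_late the 5 values are given in the order WT_late_1 to WT_late_5, and for WT_early the lowest, the median and the highest of 6. Differences are WT_late minus WT_early on the log2(value + 1) scale, which understates those of low genes, with the standard error (SE) of the model.

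Recovered depth was 8297856 to 11361010 reads in WT_late and 9753478 to 12497732 reads in WT_early. 4 wild-type libraries stood apart by their marker genes. WT_late_1 was low in B cell transcripts, with 4.61 for Pou2af1, a B cell coactivator (7345 in the median WT_late library and 7461 in the median WT_early one). It had 2677 for Siglech, 4289 for Cd7 and 5375 for Cd4, and in the other 10 libraries Siglech was at most 61.5 and Cd7 at most 30.3. WT_late_2 was high in germinal centre genes, WT_early_5 in surrogate light chain and cartilage genes, and WT_early_6 in salivary gland genes, of which Bpifa2 alone took 5.07% of its reads. Xist, the RNA that coats the inactive X chromosome, was above 1000 in 2 of 5 WT_late and 4 of 6 WT_early libraries.

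Bptf itself did not differ detectably. It had 1681, 2391, 2586, 2087 and 2217 in WT_late libraries, against 1665, 2065 and 2480.0 in WT_early libraries, a difference of 0.10 (exact two-sided permutation p = 0.463, n = 5 and 6). Myc, read from the endogenous gene and the transgene together, had 6006, 2271, 7761, 11158 and 14847 in WT_late libraries, against 6099, 9443 and 16554 in WT_early libraries. The groups overlapped and the difference of -0.47 gave an exact two-sided permutation p of 0.398; the smallest p these group sizes allow is 0.00433. Leaving out WT_late_2, the library with the lowest Myc, left a difference of -0.06.

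No gene of the 19927 tested passed limma at an adjusted p under 0.05 (0%), and the smallest adjusted p was 0.841. Without adjustment 966 genes (4.85%) had a p under 0.05, of which 480 (2.41%) were higher and 486 (2.44%) lower in WT_late. In edgeR the count at an adjusted p under 0.05 was also 0, and 1637 genes (8.21%) passed 0.05 unadjusted. DESeq2 on the recovered reads called 121 of 13194 genes (0.917%) in the model of all libraries, 88 higher (0.667%) and 33 lower (0.25%). The authors' deposited table, whose wild-type column is positive where WT_late is higher, has 259 of 13370 genes (1.94%) at an adjusted p under 0.05, 184 higher (1.38%) and 75 lower (0.561%). DESeq2 on the 11 wild-type libraries alone called 278 of 13269 genes (2.1%), 197 higher (1.48%) and 81 lower (0.61%), and these hold all 259 (93.2% of the 278). Without WT_late_1 the same DESeq2 model called 144 genes, 96 higher and 48 lower; of the 259 genes of the deposited table it called 114, did not call 120 and gave 25 no adjusted p. Among the genes called in the deposited table and named below, H2-DMb1, Ciita, Evl, Gpr171, Coro1a, Ccnl2, Clk4, Yes1, Ccdc85c, Bcl2a1b, Psmb8 and Ptpn6 lost the call in that model. Flt3 and Rgs13 had no adjusted p there. Some log2 fold changes hardly moved from the deposited value: Ccnl2 (-0.66 to -0.66), Evl (1.13 to 1.11) and Psmb8 (0.86 to 0.87). Others shrank, such as Ptpn6 (1.42 to 0.90). That model has 1 library fewer, and no other library was left out in DESeq2. The part of group size in the lost calls was not tested. Since limma called none, the genes below are given by their values, by whether the groups overlapped and by the call in the authors' deposited table. In 100 genes (0.502%) every WT_late library lay above every WT_early library, and in 112 (0.562%) every one lay below. Over all genes tested, 48.4% had the higher mean in WT_late and the median difference was -0.02.

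The late tumours had more MHC class II transcripts on average, for every gene of the group. Class II molecules carry peptides to CD4 T cells and are made by B cells as they mature; the invariant chain Cd74 holds them in the endosome until the H2-DM proteins load peptide, the H2-O proteins restrain H2-DM, and the coactivator Ciita switches the whole set on. All 11 listed members had a higher mean in WT_late, against 48.4% of all genes, with a median difference of 1.85 and a range of 0.73 to 2.63. The authors' deposited table called 8 of the 11 higher (1.38% of all its genes) and limma called 0. Higher at an unadjusted limma p under 0.05 were 8 (2.41% of all genes). Of the 8 in the deposited table, 5 were called in the wild-type DESeq2 model without WT_late_1, which called 96 genes higher in all. In 2 of the 11 every late tumour exceeded every early one (0.502% of all genes).

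**Figure D1:**
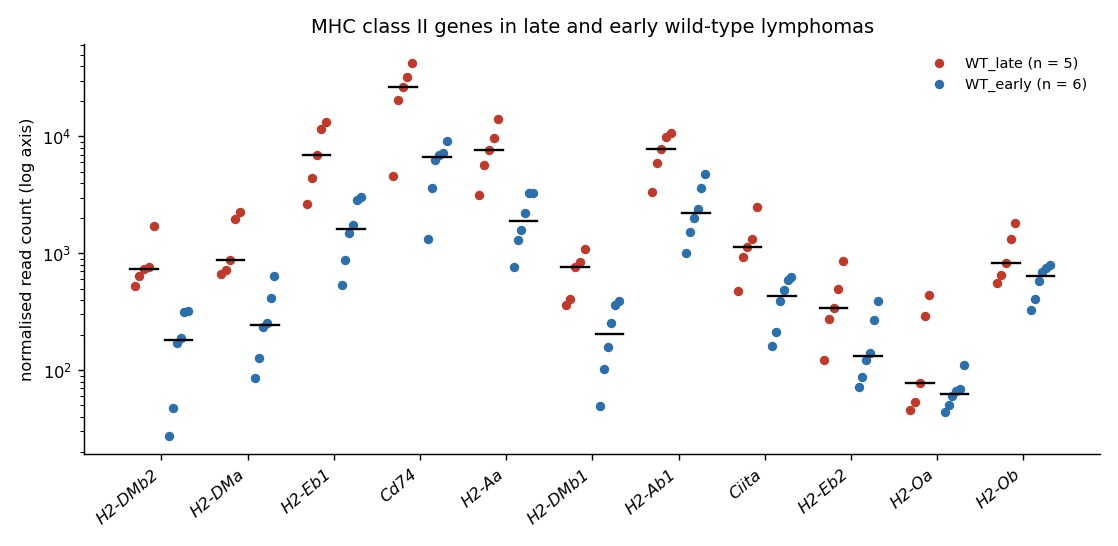
Normalised read count (log axis) of the 11 MHC class II genes in each wild-type library, with WT_late in red on the left of each pair and WT_early in blue on the right; points are libraries and bars are medians. The WT_late median lies above the WT_early median for every gene shown, and the groups do not overlap for H2-DMa and H2-DMb2.

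Peptide loading genes led the group. H2-DMa (ENSMUSG00000037649.10, GRCm38 chromosome 17, 34119541 to 34139101, plus strand) had 1975, 2259.7, 717, 666 and 880.3 in WT_late libraries, against 86.3, 244 and 640.3 in WT_early libraries. Every late tumour exceeded every early one, with a difference of 2.25 ± 0.53 (SE) and an adjusted p of 0.00679 in the authors' deposited table. Its partner H2-DMb2 had 766, 1723, 741, 521 and 644 in WT_late libraries, against 27.6, 180.2 and 321 in WT_early libraries, also without overlap (2.63 ± 0.80, SE). H2-DMb1, a near-identical neighbour whose reads the counting may share with H2-DMb2, had 1092, 846, 405, 362 and 767 in WT_late libraries, against 49.8, 205 and 394 in WT_early libraries. Here 1 WT_late library, at 362, fell below the highest WT_early one, at 394. The H2-O genes, inhibitors of H2-DM, stood closer together: H2-Oa differed by 0.90 ± 1.01 (SE) and H2-Ob by 0.73 ± 0.65 (SE), and neither was called in the authors' deposited table.

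Among the peptide-presenting chains, H2-Eb1 had 11469, 13242, 4447, 2633 and 6921 in WT_late libraries, against 532, 1625 and 3044 in WT_early libraries, a difference of 2.15 ± 0.56 (SE). H2-Aa, the alpha chain of the other classical molecule, had 9615, 14165, 5679, 3159.7 and 7652 in WT_late libraries, against 766, 1893 and 3314 in WT_early libraries (1.96 ± 0.53, SE). In both genes WT_late_4 was the lowest late tumour and the only one under the highest early tumour. Cd74 had 32396, 42794, 20359, 4616 and 26398 in WT_late libraries, against 1331, 6659 and 9129 in WT_early libraries (2.05 ± 0.78, SE). Ciita, the master coactivator of the group (GRCm38 chromosome 16, 10480059 to 10528418, plus strand), had 1335, 2478, 929, 477 and 1139 in WT_late libraries, against 162, 435 and 633 in WT_early libraries, and WT_late_4 again was the lowest late value. Ciita differed by 1.59 ± 0.45 (SE) and had an adjusted p of 0.0232 in the authors' deposited table. The mean log2 level over the 11 genes was 9.72 to 11.68 in WT_late and 7.68 to 9.85 in WT_early libraries. The groups overlapped there by 1 library each, WT_late_4 at 9.72 and WT_early_2 at 9.85.

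3 measurements bear on the group. Without WT_late_1 the median difference was 1.66 with all 11 members higher, and over the 11 ways of leaving out 1 library it ran from 1.49 to 2.08. Macrophage genes, another source of class II transcripts, had a higher mean in WT_late for 17 of 24 members (median 0.52), with no member at 0 throughout. Their summed level was 14671 to 71145 in WT_late and 12198 to 26972 in WT_early. Of the defining markers, C1qa, Adgre1 and Csf1r differed by 0.59, -1.06 and 0.62. In the authors' deposited table the log2 fold changes of C1qa, Adgre1, Csf1r and Cd68 were 0.74, 0.17, 0.79 and 0.79, none of them called. The part of these cells was not tested, and in bulk tissue fewer cells of a type and less RNA per cell cannot be told apart. In Bptf+/delta tumours, which share no library with these, all 11 members were also higher in HET_late than in HET_early, with a median of 1.58, and no member differed between genotypes in this contrast at an unadjusted limma p under 0.05.

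Class II promoters are known for an X box and a Y box close upstream of the start, which a complex that recruits CIITA binds. The promoter windows of 3 members whose counts are given above are printed to show both boxes in place, from RefSeq (GRCm38.p6), 250 bases before to 50 after the start, with the X box (searched as AAC, any 2 bases and ATGATG) and the Y box (TGATTGG) in capitals.
H2-Eb1: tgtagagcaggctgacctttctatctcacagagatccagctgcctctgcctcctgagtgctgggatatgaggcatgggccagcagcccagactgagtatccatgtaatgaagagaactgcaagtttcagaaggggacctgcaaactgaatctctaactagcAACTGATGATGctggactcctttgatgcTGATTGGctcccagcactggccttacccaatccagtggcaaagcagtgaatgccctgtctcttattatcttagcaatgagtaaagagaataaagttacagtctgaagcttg
H2-DMb1: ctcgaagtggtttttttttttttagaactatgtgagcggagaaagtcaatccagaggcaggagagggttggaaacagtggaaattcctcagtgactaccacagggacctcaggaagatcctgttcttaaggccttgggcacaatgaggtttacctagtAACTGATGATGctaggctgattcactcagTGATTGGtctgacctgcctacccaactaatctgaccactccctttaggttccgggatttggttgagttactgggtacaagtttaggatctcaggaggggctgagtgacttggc
H2-DMb2: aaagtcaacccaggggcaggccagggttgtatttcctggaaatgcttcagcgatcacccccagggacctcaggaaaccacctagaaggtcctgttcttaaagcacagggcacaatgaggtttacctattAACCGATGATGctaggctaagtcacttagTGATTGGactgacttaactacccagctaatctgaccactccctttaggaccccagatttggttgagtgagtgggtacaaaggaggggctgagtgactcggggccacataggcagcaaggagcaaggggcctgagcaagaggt
The windows lie at chr17:34305617-34305916, chr17:34152941-34153240 and chr17:34144999-34145298, all on the plus strand. Both strands were searched, with letters chosen after these promoters had been read, and the motifs do not overlap each other. Of the 11 listed members 8 had a window in the table, 9 windows in all, of which 4 held the X box, 7 the Y box and 4 both. H2-Eb1, H2-DMb1, H2-DMb2 and H2-Ob were those with both, 17, 18, 18 and 15 bases apart. Among all 32851 windows of this length 0.137% held the X box, 7.82% the Y box and 0.0274% both. A match is a run of letters only. H2-DMa, whose groups did not overlap, had neither run in its windows, and H2-DMb2, whose groups did not overlap either, had both.

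Beyond class II, the genes with the smallest p among those higher in WT_late were Hoxb6, Evl, Adamts13, Gpr171, Smap2, Mapre2, Gpsm3 and Slc2a6, each with a limma adjusted p of 0.841. Hoxb6, a homeobox transcription factor gene of the Hoxb cluster, had 4.61, 68.3, 13.3, 20.5 and 17.7 in WT_late libraries, against 0, 1.17 and 7.12 in WT_early libraries. The counts are low and WT_late_2 was the highest, but the difference of 2.96 ± 0.71 (SE) was still 2.49 without it. All 9 measured Hoxb genes and all 9 measured Hoxa genes had a higher mean in WT_late, against 48.4% of all genes. Their median differences were 1.19 and 1.07, and these clusters were looked up after the Hoxb6 value was seen. In Bptf+/delta tumours 2 of 9 Hoxb and 1 of 9 Hoxa genes had a higher mean in HET_late, with medians of -1.41 and -0.97. Most genes of both clusters were near the detection limit: Hoxb5 had 3.69, 17.3, 7.23, 8.46 and 17.7 in WT_late libraries, against 0, 1.35 and 4.45 in WT_early libraries.

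Gpr171, a G protein-coupled receptor gene, had 219, 27.5, 20.5, 144 and 121 in WT_late libraries, against 1.74, 7.31 and 43.2 in WT_early libraries (3.04 ± 0.78, SE). Slc2a6, a hexose transporter gene, had 428, 223, 75.9, 39.9 and 17.7 in WT_late libraries, against 6.23, 12.6 and 24.8 in WT_early libraries, and the late tumours spread widely, from inside the early range upward. Gpsm3, a modulator of heterotrimeric G proteins, was tighter, with 592, 640.1, 464, 412 and 571 in WT_late libraries, against 198, 287 and 336 in WT_early libraries. All late values exceeded all early values (0.90 ± 0.24, SE; adjusted p 0.000515 in the authors' deposited table). Smap2, which acts on Arf GTPases at clathrin coats, also separated fully, with 2273, 1422, 1665, 1290.5 and 1207 in WT_late libraries, against 769, 938 and 1069 in WT_early libraries. Evl, an actin filament elongation factor, differed by 1.09 ± 0.26 (SE) and Mapre2, a microtubule end-binding protein, by 0.70 ± 0.19 (SE), both with overlap. Adamts13, the protease that cuts von Willebrand factor, had 174, 736, 141, 173 and 122 in WT_late libraries, against 32.2, 47.3 and 117 in WT_early libraries. Without WT_late_2, where it was highest, its difference was 1.37 in place of 1.83.

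Cd52, a small glycolipid-anchored surface protein of lymphocytes, showed one of the widest gaps and is named here after its values were seen (ENSMUSG00000000682.7, GRCm38 chromosome 4, 134082448 to 134095082, minus strand). It had 8396, 7623, 2834, 637 and 947 in WT_late libraries, against 220.3, 311 and 602 in WT_early libraries. The lowest late tumour still exceeded the highest early one, with a difference of 2.90 ± 0.87 (SE), 2.47 without WT_late_1, and an adjusted p of 1.5e-05 in the authors' deposited table. Cnn2, Lcp1, Coro1a and Cfl1 were also picked one by one after their values were seen, and their differences were smaller. Cnn2, an actin-binding calponin, had 3491, 1489, 1259, 940.0 and 1335 in WT_late libraries, against 305, 613 and 843 in WT_early libraries (1.48 ± 0.42, SE). Lcp1, the leukocyte actin bundler, had 24499, 10478, 11082, 10589 and 12258 in WT_late libraries, against 5018, 6717 and 9260 in WT_early libraries (0.96 ± 0.32, SE). Coro1a and Cfl1, an actin regulator of leukocytes and a filament-severing cofilin, had differences of 0.59 and 0.45 without overlap. All 4 were called higher in the authors' deposited table. Cnn2 and Lcp1 were highest in WT_late_1, and without it their differences were 1.18 and 0.74.

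**Figure D2:**
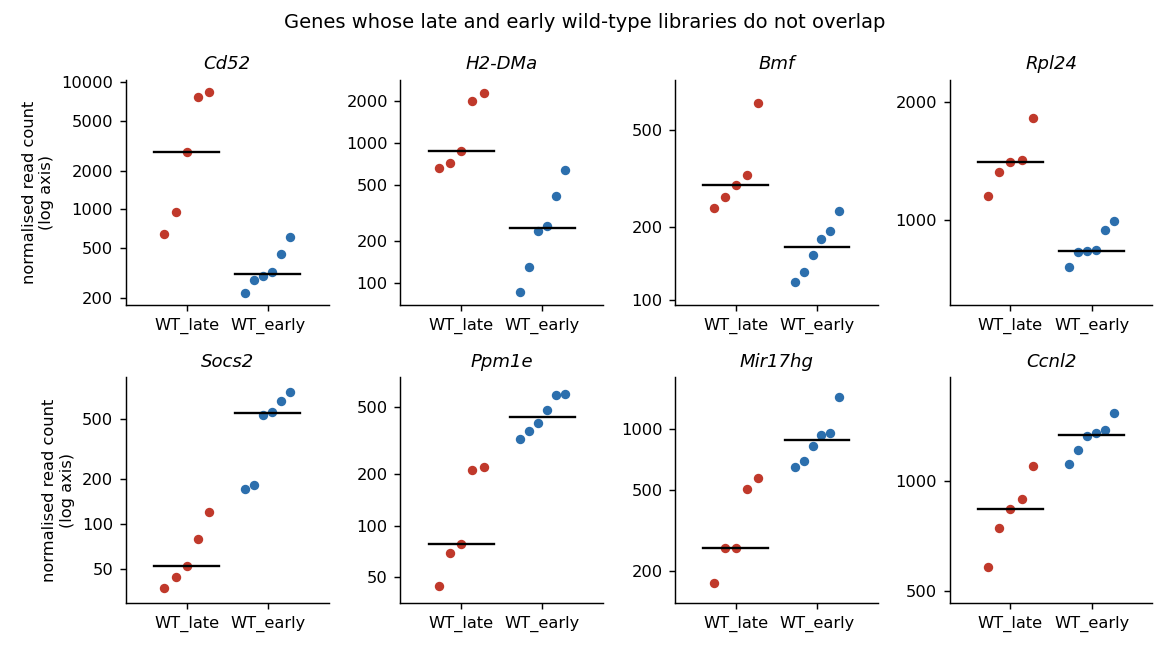
Normalised read count (log axis) of 8 genes in which the WT_late (red, left) and WT_early (blue, right) libraries did not overlap; points are libraries and bars are medians. Cd52, H2-DMa, Bmf and Rpl24 lie higher in WT_late and Socs2, Ppm1e, Mir17hg and Ccnl2 lie lower.

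Among genes lower in WT_late, Socs2, a cytokine-induced brake on JAK and STAT signalling, was one of the most separated (ENSMUSG00000020027.18, GRCm38 chromosome 10, 95385362 to 95417180, minus strand). It had 52.6, 79.5, 37.4, 44.7 and 120.0 in WT_late libraries, against 171, 547 and 758 in WT_early libraries. The highest late value lay below the lowest early value, with a difference of -2.72 ± 0.62 (SE; adjusted p 1.01e-05 in the authors' deposited table). Of the 8 genes of the Socs family measured, 4 had a lower mean in WT_late. Socs2 alone separated the groups (0.562% of all genes lay lower in every late tumour). Socs3 differed by -0.06 and Cish by -0.08, within their spread. In Bptf+/delta tumours Socs2 differed by -0.66, and the interaction had an unadjusted limma p of 0.0442 (adjusted p 0.714).

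Ppm1e, a metal-dependent protein phosphatase (GRCm38 chromosome 11, 87226906 to 87359023, minus strand), had 77.5, 43.8, 68.7, 219.9 and 211 in WT_late libraries, against 324, 437 and 594 in WT_early libraries, with no overlap (-2.12 ± 0.47, SE). With log2 weeks of onset in place of the 2 classes, Ppm1e was the only gene that limma called, with an adjusted p of 0.0214. Plekhh1 had 4.61, 9.17, 2.41, 4.83 and 11.8 in WT_late libraries, against 17.7, 54.4 and 159.6 in WT_early libraries, again with no overlap (-2.93 ± 0.65, SE). It is a gene of a pleckstrin homology domain protein, and its difference in Bptf+/delta tumours was of like size, -2.75. Prdm9, the histone methyltransferase that places meiotic recombination in germ cells, had 16.6, 40.8, 47.0, 31.4 and 47.1 in WT_late libraries, against 90.9, 103 and 129 in WT_early libraries. These early values lay close together and above every late value (-1.56 ± 0.38, SE; adjusted p 5.37e-05 in the authors' deposited table).

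Yes1, a kinase of the Src family, differed by -1.70 ± 0.43 (SE), Krtcap3 by -2.23 ± 0.56 (SE) and Ccdc85c by -2.03 ± 0.55 (SE), each with some overlap and each called lower in the authors' deposited table. In the wild-type DESeq2 model without WT_late_1, Yes1 had an adjusted p of 0.0594, Ccdc85c 0.0543 and Krtcap3 0.00583. Plekha5 differed by -2.33 ± 0.62 (SE) and was not called there. Msantd2 and the pseudogene Ppp4r1l-ps separated fully, with differences of -0.84 and -0.93. Fmn2, a formin that nucleates actin, had 2.77, 0, 0, 2.42 and 0 in WT_late libraries, against 0, 21.5 and 206 in WT_early libraries. It was at 0 in 3 of 5 late tumours and in 1 of 6 early ones, so its fitted difference of -3.69 depends on the added 1.

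Mir17hg, the host transcript of the miR-17 to miR-92a cluster, was lower in every late tumour and was chosen after its values were seen (ENSMUSG00000089726.2, a long non-coding RNA, GRCm38 chromosome 14, 115042879 to 115046727, plus strand). Its microRNAs are known as a MYC-induced cluster that lowers the pro-apoptotic Bim and speeds lymphoma in Em-Myc mice. The 6 mature forms for which the cluster is best known are printed to show which seeds it carries, from RefSeq (GRCm38.p6), with the seed (bases 2 to 8) in capitals.
mmu-miR-17-5p: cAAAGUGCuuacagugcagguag
mmu-miR-20a-5p: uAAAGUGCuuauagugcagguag
mmu-miR-18a-5p: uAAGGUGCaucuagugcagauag
mmu-miR-19a-3p: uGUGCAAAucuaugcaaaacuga
mmu-miR-19b-3p: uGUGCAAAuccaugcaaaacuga
mmu-miR-92a-3p: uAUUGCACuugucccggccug
They are 6 of 11 mature sequences in the span of the host gene. miR-17-5p and miR-20a-5p share the seed AAAGUGC, and miR-19a-3p and miR-19b-3p share GUGCAAA, while miR-18a-5p and miR-92a-3p each have their own. The libraries measured the polyadenylated host transcript, not the mature microRNAs.

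Mir17hg had 258, 173, 572, 259 and 507 in WT_late libraries, against 654, 882 and 1443 in WT_early libraries. The highest late value, 572, lay under the lowest early value, 654, and the difference was -1.47 ± 0.55 (SE; adjusted p 0.0119 in the authors' deposited table). In Bptf+/delta tumours the difference was 0.37, and the interaction had an unadjusted limma p of 0.0420 (adjusted p 0.714). Bcl2l11, which encodes Bim, a target of these microRNAs, had 468, 793, 534, 710.5 and 655 in WT_late libraries, against 433, 584 and 795 in WT_early libraries, with full overlap (0.06 ± 0.18, SE).

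Several splicing-linked genes were among the 112 lower in every late tumour; they were picked out after their values were seen. Ccnl2, a cyclin L that works with splicing kinases, had 839, 581, 1096, 746 and 891 in WT_late libraries, against 1114, 1339.5 and 1536 in WT_early libraries (-0.69 ± 0.17, SE). Tra2a, a splicing activator, had 964, 1437, 1124, 1095 and 1258 in WT_late libraries, against 1617, 1706 and 1846 in WT_early libraries (-0.56 ± 0.20, SE). Clk4, a kinase that phosphorylates SR splicing proteins, had 388, 490.3, 434, 323 and 445 in WT_late libraries, against 499, 607 and 741 in WT_early libraries (-0.56 ± 0.18, SE). In each the highest late tumour was below the lowest early tumour. Taken as whole families, 4 of 4 Clk genes and 9 of 10 Srsf genes had a lower mean in WT_late, with medians of -0.52 and -0.30, and 1 of the Clk and 2 of the Srsf genes lay lower in every late tumour, as did 0.562% of all genes. These families were looked up after values were seen. In Bptf+/delta tumours the medians of the same families were 0.09 and 0.17, and Ccnl2 differed by 0.11 (interaction unadjusted limma p 0.00689, adjusted p 0.703). Rsrp1, an arginine and serine rich protein gene, had the opposite sign in the genotypes, -0.71 in wild-type and 1.21 in Bptf+/delta tumours; its interaction had an unadjusted limma p of 5.06e-05 and an adjusted p of 0.436.

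Cytosolic ribosomal protein genes had slightly higher means in the late tumours, by an even amount. All 32 listed members had a higher mean in WT_late, with differences of 0.25 to 0.65 and a median of 0.44. In 8 of the 32 every late tumour exceeded every early one (0.502% of all genes). The authors' deposited table called 10 higher (1.38% of all its genes) and limma called 0. Of the 10, 6 were also called in DESeq2 without WT_late_1, which called 96 genes higher in all. Rpl30 had 12126, 9698, 10434, 10398 and 13732 in WT_late libraries, against 6082, 7194 and 8788 in WT_early libraries (0.63 ± 0.27, SE). Rpl24, outside the list and picked after its values were seen, had 1405, 1327, 1149, 1419.7 and 1819 in WT_late libraries, against 758, 835 and 994 in WT_early libraries (0.71 ± 0.27, SE; adjusted p 0.000385 in the authors' deposited table). Over all 83 cytosolic ribosomal protein genes, 81 had a higher mean in WT_late (48.4% of all genes). Of the 83, 21 were higher in every late tumour (0.502% of all genes). Mean log2 levels of the list were 14.14 to 14.59 in WT_late and 13.66 to 14.15 in WT_early libraries, and HET_late minus HET_early had a median of 1.06 for it. Quantile normalisation lowered the wild-type median to 0.10.

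Nuclear genes of oxidative phosphorylation, which build the respiratory chain, had a higher mean in WT_late for 36 of 39 members with a median of 0.24. The authors' deposited table called 1 of the 39 higher (1.38% of all its genes) and limma 0. Of 12 measured subunits of the initiation factor eIF3, looked up after values were seen, 10 had a higher mean, 3 without overlap (0.502% of all genes), with a median of 0.23. Transcript length moved with these differences. When 9614 genes with a mean of at least 50 were split into 5 bins of like size by exonic length, the bin of the shortest had a median difference of 0.15, with 69.8% higher, and the bin of the longest had -0.10, with 36.2% higher. Of the lists, 23 of 32 ribosomal and 31 of 39 respiratory genes lie in the bin of the shortest. That bin without those lists had a median of 0.14 over 1870 genes, and the part of length in these results was not tested.

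**Figure D3:**
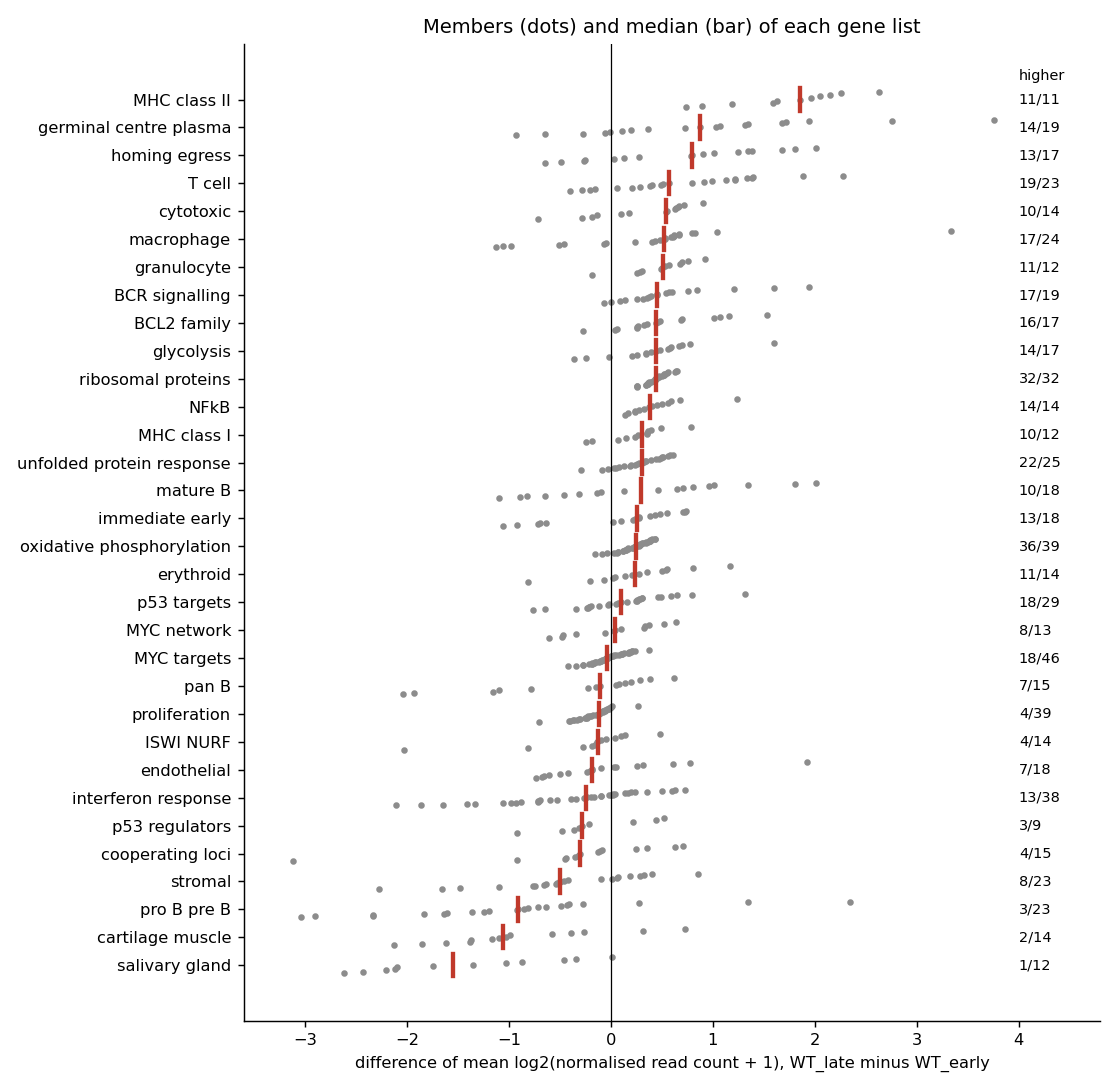
Difference WT_late minus WT_early on the log2(value + 1) scale for the members of each gene list (dots), with the list's median as a bar and, at the right, how many members had a higher mean in WT_late of how many measured. MHC class II stands at a median of 1.85 with 11 of 11 higher. MYC targets have a median of -0.04 with 18 of 46 higher, and proliferation genes -0.12 with 4 of 39 higher.

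The lists of MYC targets and of proliferation genes had small median differences. Of 46 MYC targets of ribosome biogenesis and nucleotide synthesis, 18 had a higher mean in WT_late and the median was -0.04, with its sign reversed under 7 of 27 alternative settings. Proliferation genes had a higher mean in WT_late for 4 of 39, against 48.4% of all genes, with a median of -0.12. It was 14 of 39 without WT_late_1 (median -0.05) and 16 of 39 with Xist as a covariate (median -0.02). Without WT_early_6 it was 2 of 39 (median -0.14), and under quantile normalisation 1 of 39 (median -0.20). The median kept its sign under all 27 alternative settings. Mki67, the Ki-67 antigen, had 7476, 7369, 9078, 10059 and 10710.3 in WT_late libraries, against 8133, 12343 and 14066 in WT_early libraries. Neither list had a member called by limma or by the authors' deposited table. Glycolytic genes had a higher mean in 14 of 17 (median 0.44) and genes of the unfolded protein response in 22 of 25 (median 0.30, and 0.20 without WT_late_2), with 0 calls by either. Of 14 genes of the NURF and related ISWI complexes, 4 had a higher mean and the median was -0.13, and -0.02 without WT_late_2. Cecr2, the partner of an ISWI remodeller, spread most, with 159.5, 354, 441, 2626 and 2782 in WT_late libraries, against 1316, 3137 and 5622 in WT_early libraries.

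The ARF and p53 pathway differed by tumour rather than by group. Trp53, which encodes p53, had 2169, 2137, 2469, 2394 and 2839.7 in WT_late libraries, against 461, 2108 and 2515 in WT_early libraries. The early value of 461 was that of WT_early_3, whose Cdkn2a, the locus of ARF, was 2232; Cdkn2a otherwise stood at 71.9, 592, 100, 8.46 and 24.7 in WT_late libraries and had a median of 65.0 in WT_early libraries. Of 29 p53 targets, 18 had a higher mean in WT_late (median 0.09, and 0.03 without WT_late_2 to 0.26 without WT_late_4), and the authors' deposited table called Sesn1, a stress-induced regulator of TOR signalling, at 0.85 (adjusted p 0.00658). Sesn1 had 1185, 607, 1223, 940.0 and 1203 in WT_late libraries, against 487, 569 and 687 in WT_early libraries.

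BCL2 family genes, which set the threshold for apoptosis, had a higher mean in WT_late for 16 of 17 members (median 0.44), pro-apoptotic and anti-apoptotic alike. Bmf, a BH3-only activator of cell death, had 643, 237, 327, 296 and 265 in WT_late libraries, against 119, 166 and 232 in WT_early libraries. It was the only member without overlap (0.502% of all genes were higher without overlap). Its difference was 1.01 ± 0.40 (SE) and 0.77 without WT_late_1, and in Bptf+/delta tumours it differed by -0.06. The survival gene Mcl1 had 8249, 4893, 2757, 3171 and 3958 in WT_late libraries, against 2538, 3062 and 3655 in WT_early libraries (0.48 ± 0.24, SE). Bcl2, its relative, differed by 0.44 ± 0.59 (SE), within the spread. The authors' deposited table called 3 members higher (1.38% of all its genes): Bmf, the BH3-only gene Bid and the survival gene Bcl2a1b, whose near-copies Bcl2a1a and Bcl2a1d may share its reads.

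B cell stage genes varied more between tumours than between groups. Pro-B and pre-B genes had a lower mean in WT_late for 20 of 23 members (median -0.92), but the median was -0.40 without WT_early_5. It kept its sign under all 27 alternative settings. No member was called lower, but the authors' deposited table gave an adjusted p for only 16 of the 23. In Bptf+/delta tumours 2 of the 23 had a higher mean in HET_late than in HET_early (median -2.60). Rag1, which cuts DNA in antigen receptor assembly, had 11.1, 5.10, 5367, 36.2 and 628 in WT_late libraries, against 145, 702 and 4021 in WT_early libraries, and the late tumours held both the lowest and the highest value. Igll1, a surrogate light chain gene, had 0, 0, 34.9, 7.25 and 4.71 in WT_late libraries, against 0, 21.8 and 3936 in WT_early libraries, and the highest was WT_early_5. Flt3, a cytokine receptor of progenitors and dendritic cells, went the other way, with 1524, 895, 38.6, 23.0 and 93.0 in WT_late libraries, against 11.3, 36.2 and 99.0 in WT_early libraries; it was called higher in the authors' deposited table, and its difference of 2.34 was 1.54 without WT_late_1.

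Markers of the whole B lineage had a higher mean in WT_late for 7 of 15 members (median -0.11), with a changed sign under 7 of 27 settings. Pou2af1 had 4.61, 7586, 7345, 9603 and 7002 in WT_late libraries, against 5579, 7461 and 7979.5 in WT_early libraries, a difference of -1.93 that was 0.16 without WT_late_1. Mature B cell genes had a higher mean in 10 of 18 (median 0.30, and 0.09 without WT_late_2, 0.09 without WT_late_3 and 0.11 without WT_early_5). Germinal centre and plasma cell genes had a higher mean in 14 of 19 (median 0.87, and 0.04 without WT_late_2). In Bptf+/delta tumours 18 of the 19 had a higher mean in HET_late than in HET_early (median 1.40). Rgs13, a G protein regulator of germinal centre cells, was 1703 in WT_late_2 and its median was 1.21 in WT_late and 0 in WT_early libraries.

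B cell receptor signalling genes had a higher mean in WT_late for 17 of 19 members (median 0.45), of which the authors' deposited table called 3 higher (1.38% of all its genes). Without WT_late_1 the wild-type DESeq2 model called none of these 3, and 2 of them had no adjusted p there. Ptpn6, the phosphatase SHP-1 that damps receptor signals, had 9470.1, 4431, 2528, 3212 and 1846 in WT_late libraries, against 952, 1667 and 2093 in WT_early libraries, the highest being WT_late_1 (1.21 ± 0.44, SE; 0.86 without it). All 14 NF-kB subunit and feedback genes had a higher mean in WT_late (median 0.39), with 0 called. Without WT_late_2 it was 11 of 14 (median 0.17), and without WT_late_4 the median was 0.66. Of the 14, 6 had a higher mean in HET_late than in HET_early tumours (median -0.10). Nfkbia, the inhibitor of NF-kB, had 806, 989, 843, 532 and 494 in WT_late libraries, against 323, 417 and 614 in WT_early libraries. Immediate early genes had a higher mean in 13 of 18 (median 0.25, and 0.11 without WT_late_1 and 0.03 without WT_early_1). Genes of lymphocyte homing and egress had a higher mean in 13 of 17 (median 0.80), 0 called, and in 10 of 17 without WT_late_1 (median 0.45). MHC class I genes, in contrast to class II, had a median of only 0.31 with 10 of 12 higher, and 0.15 with 8 of 12 higher without WT_late_2; the immunoproteasome subunit Psmb8 was the 1 that the authors' deposited table called (0.79 ± 0.42, SE). Interferon-stimulated genes had a higher mean in 13 of 38 (median -0.24), 0 called, and in 6 of 38 without WT_late_1 and 5 of 38 without WT_late_2 (median -0.43). Oas2, an antiviral nucleotide synthetase, had 16.6, 47.9, 1.20, 4.83 and 15.3 in WT_late libraries, against 10.8, 55.1 and 105 in WT_early libraries.

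Gfi1, a repressor gene that retroviral insertions activate in Em-Myc tumours, was low in 3 of 5 late tumours. It had 1.84, 28.5, 274, 14.5 and 231 in WT_late libraries, against 188, 345 and 489.6 in WT_early libraries, a difference of -3.11 ± 1.09 (SE) with an unadjusted limma p of 0.0099, and neither limma nor the authors' deposited table called it. In Bptf+/delta tumours the difference was of like size, -3.31. The 15 loci known to cooperate with MYC had a higher mean in WT_late for 4 members (median -0.30, and -0.15 without WT_late_1 and -0.12 without WT_early_2).

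**Figure D4:**
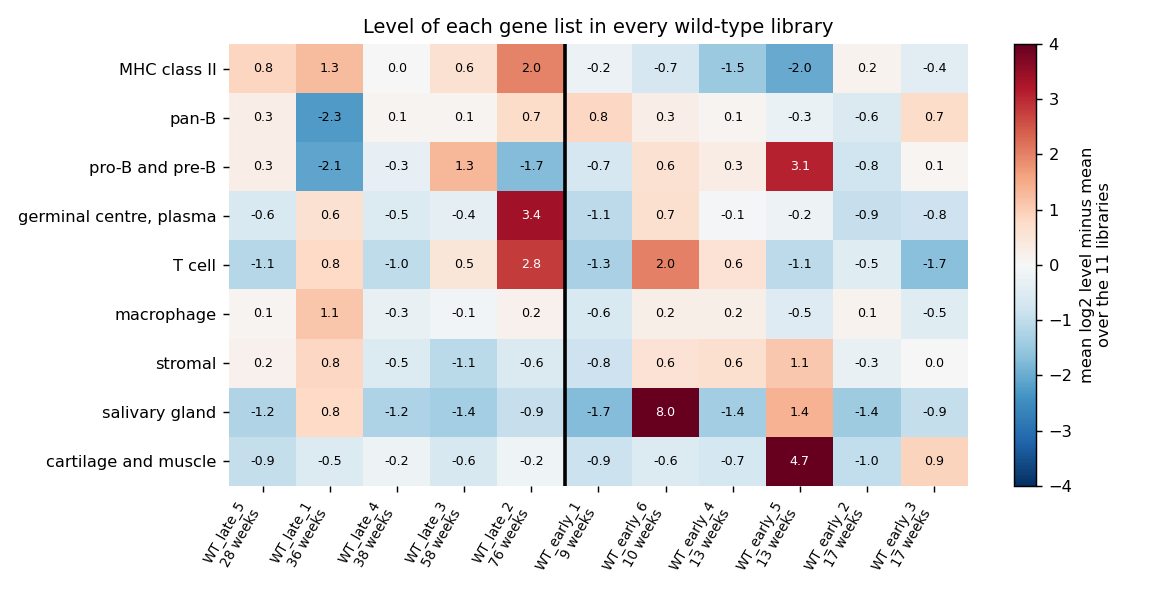
Mean log2 level of 9 gene lists in each of the 11 wild-type libraries, minus the mean over the 11 libraries (colour scale), with WT_late on the left and WT_early on the right, each ordered by weeks of onset. Single libraries dominate the pan-B, pro-B and pre-B, germinal centre, salivary gland and cartilage lines. The MHC class II line is above 0 in all 5 WT_late columns and in 1 of 6 WT_early columns. The groups overlap there, with WT_late_4 at 0.02 and WT_early_2 at 0.16.

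Genes that mark other cell types also differed between libraries, and which of their transcripts came from tumour cells was not tested. T cell genes had a higher mean in WT_late for 19 of 23 members (median 0.57, and 0.02 without WT_late_2). Their summed level was 3599 to 12056 in WT_late and 2517 to 5295 in WT_early. The highest sum was that of WT_late_1, the library low in B cell transcripts and high in Cd4. Cytotoxic genes had a higher mean in 10 of 14 (summed level 45.9 to 681 in WT_late and 45.2 to 416 in WT_early), but in 7 of 14 without WT_late_2 (median -0.03 in place of 0.54). Granulocyte genes had a higher mean in 11 of 12 (343 to 2995 in WT_late and 486 to 3385 in WT_early). Ly6c2, a surface antigen of monocytes and some lymphocytes, stood out of the macrophage list, with 3191, 88.7, 652, 62.8 and 492 in WT_late libraries, against 16.0, 22.4 and 141 in WT_early libraries (3.33 ± 1.12, SE). It was highest in WT_late_1. Its log2 fold change was 4.21 in the authors' deposited table and 2.74 in the wild-type DESeq2 model without WT_late_1. Erythroid genes had a higher mean in 11 of 14 (median 0.24), but in 3 of 14 without WT_late_1 (median -0.30). Endothelial genes had a higher mean in 7 of 18 and stromal genes in 8 of 23 (5 of 23 without WT_late_1), with summed levels that overlapped between groups. Mgp, a matrix calcification inhibitor in the stromal list, had 84.8, 46.9, 48.2, 74.9 and 30.6 in WT_late libraries, against 113, 229 and 808 in WT_early libraries without overlap. Salivary gland genes (median -1.55, and 0.09 without WT_early_6) and cartilage and muscle genes (median -1.06, and -0.11 without WT_early_5) rested on 1 early library each. The part of these cells in the results above was not tested.

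Bptf+/delta tumours gave the same sign for most of the separated genes. Of the 100 genes higher in every late wild-type tumour, 86 had a higher mean in HET_late than in HET_early, against 43.9% of all genes. Of the 112 lower in every late wild-type tumour, 76 (67.9%) had a lower mean in HET_late, against 56.1% of all genes. The median HET difference was 0.72 for the 100 and -0.37 for the 112, beside wild-type medians of 0.59 and -0.79. HET_late against HET_early, tested alone, gave 0 limma calls and 3887 genes (19.5%) at an unadjusted p under 0.05. The difference between the genotypes' contrasts gave 0 limma calls with 1382 genes (6.94%) at an unadjusted p under 0.05, 0 edgeR calls, and 96 of 14616 genes (0.657%) in DESeq2. Hoxb6 was opposite in sign between them, 2.96 in wild-type and -2.06 in Bptf+/delta tumours (interaction unadjusted limma p 0.000203, adjusted p 0.45), and so was Bin1, a MYC-interacting adaptor, at 0.75 and -1.02 (interaction unadjusted limma p 0.000543).

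**Figure D5:**
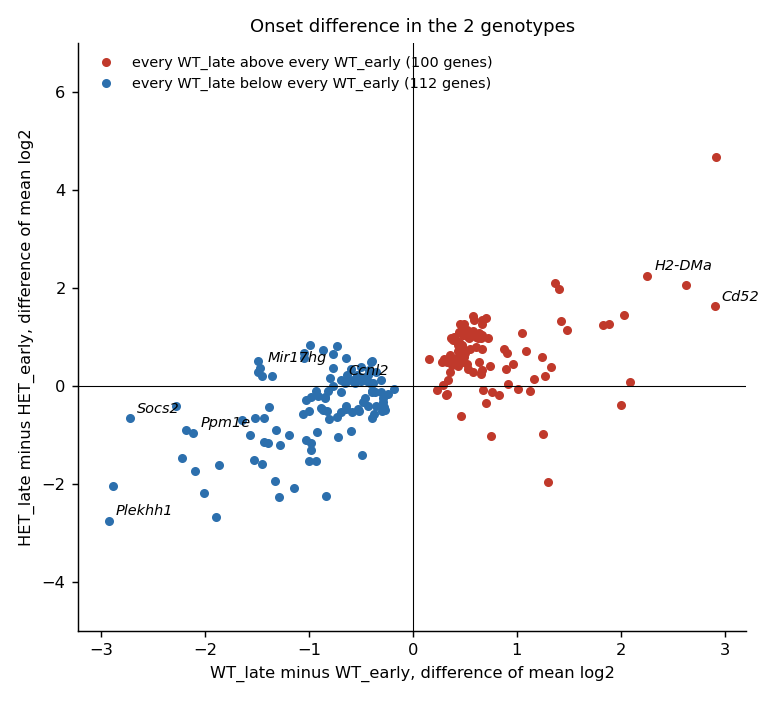
Late minus early difference in wild-type tumours (x axis) and in Bptf+/delta tumours (y axis), both on the log2(value + 1) scale, for the 100 genes higher and the 112 genes lower in every late wild-type tumour. The 2 contrasts share no library; 86 of the 100 lie above 0 on the y axis and 76 of the 112 lie below it.

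Expression along whole chromosomes shifted in single tumours of both groups. WT_late_5 had a median shift above 0.2 on the log2 scale on 7 chromosomes, and WT_late_1 and WT_late_3 on 1 each; WT_early_5 had it on 2, WT_early_2 on 3 and WT_early_3 on 1, with 2 further chromosomes below -0.2. Chromosome 15, which bears Myc, was shifted by 0.54 in WT_late_5 and 0.36 in WT_late_1, against 0.31 in WT_early_5. Chromosome 17, which bears 9 of the 11 class II genes, was shifted by 0.35 in WT_late_5 and 0.39 in WT_early_2. Chromosome 16, which bears Ciita, was shifted by 0.44 in WT_late_5. Chromosome 18, which bears Cd74, was shifted by 0.39 in WT_late_5 and 0.47 in WT_late_3. No early library was above 0.2 on chromosome 16 or 18. Without WT_late_5 the class II median was 1.78, and without WT_early_2 it was 2.08.

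Tumours of both groups varied in how far a single immunoglobulin variable gene led. In WT_late libraries the most abundant Igkv gene took 10.1% to 79.2% of Igkv reads, against 21.8% to 54.6% in WT_early libraries. Igkv3-9 made up 79.2% (95% Wilson interval 76.9 to 81.3) in WT_late_5, whereas in WT_late_3 Igkv17-121 led with 10.1% (8.39 to 12.0). Among Ighv genes, Ighv1-7 led WT_late_3 with 46.8% (44.1 to 49.6), and Ighv12-3 led WT_early_2 with 78.1% (74.9 to 81.0). The intervals cover counting error only, and WT_late_1 had just 14 Ighv reads.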

How the data were processed

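Bulk poly(A)+ RNA was sequenced from flash-frozen lymphomas on a Genome Analyzer IIx, with 10 PCR cycles or 8 in the v.2 protocol, per the labels' protocols; which library had which is not given in the labels. The tools listed, per the submitters' processing notes, are TopHat2 2.1.1, FastQC 0.11.5, Cufflinks 2.2.1, Cuffdiff and Cuffnorm, with builds GRCm38 and mm10. For the gene annotation, the strand setting and the tool behind the table, nothing is stated in those sources. A normalised signal for 21086 genes was deposited, which the authors made by dividing gene counts by 1 size factor per library: 100% of values were whole multiples of 1 read (within 0.01 reads), and DESeq2's median-of-ratios factors were identical to those of the table. Per gene and comparison the authors added log2 fold changes and adjusted p-values to it.

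The 19927 genes that reached 1 in 4 or more of the 19 libraries were tested with limma 3.58.1 (trend, empirical Bayes, R 4.3.3) on log2(value + 1), with 4 group means and no covariates, and adjusted by Benjamini-Hochberg. Bptf and Myc had exact permutation tests (SciPy 1.17.1). edgeR 4.0.16 and DESeq2 1.42.0 on the recovered reads were alternatives, and each tool was tested on simulated data. There DESeq2 called more of the changed genes, and also more of the unchanged genes, than limma or edgeR. Gene coordinates are from GENCODE M21, matched by symbol for 16075 genes; 23 symbols had become dates. The lowest chi-square per gene among 55 pairs of wild-type libraries was 31.6, so no 2 libraries agreed within counting noise; numbers in library names only name them. PCR copies were not marked, so reads are not independent molecules and depth covers counting error only.

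Genes named by rule are Bptf, Myc and the 12 smallest p-values in each direction with a group mean of at least 20. Predicted genes were passed over, to which clone-based names were added once the table had been seen. Up to 4 members of each of 33 gene lists were added, and not every gene named by rule is described. Other genes, among them H2-DMb2, Cd74, Ciita, Cdkn2a, Rsrp1 and Bin1, were described outside this rule, with their values known. The gene lists and the comparison were chosen with earlier results of these data known.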

Additional observations from a re-analysis of the deposited data

Results flagged for a closer look

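Of 116 groups of libraries tested for a value far from the others of its group, 10 had one. Chance gives about 1 in 20 where values are normally distributed. Gene values were taken without a log and their distribution was not checked, so the 10 cannot be read as an excess. Hoxb6 was 68.3 in WT_late_2, against 4.61 to 20.5 in the other WT_late libraries. Adamts13 was 736 in WT_late_2, against 122 to 174 in the others of its group. Evl was 577 in WT_early_5, against 245 to 368 in the other WT_early libraries, and Fmn2 was 206 there, against 0 to 64.9. Plekhh1 was 160 in WT_early_2 (159.64), against 17.7 to 64.4 in the others of its group.

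The remaining values are mean log2 levels of gene lists. B lineage markers stood at 8.59 in WT_late_1, against 10.95 to 11.60 in the other WT_late libraries, and salivary gland genes at 3.94 there, where the others of its group did not exceed 2.205. Pro-B and pre-B genes stood at 10.12 in WT_early_5, against 6.24 to 7.65 in the other WT_early libraries, and cartilage and muscle genes at 7.83 there, against 2.14 to 3.99. Salivary gland genes stood at 11.17 in WT_early_6, against 1.39 to 4.51.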

How the results depend on the processing

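The 0 limma calls in either direction were also found with a pseudocount of 0.1 or 10, no filter, a mean of at least 10, TMM factors, quantile normalisation, array weights, Xist as a covariate, edgeR, the wild-type libraries alone and each library left out in turn (0 to 0). The smallest adjusted limma p over the leave-one-out fits was 0.0506, without WT_early_5. Log2 weeks of onset gave 0 higher and 1 lower. DESeq2 gave 88 higher and 33 lower with all libraries, 197 and 81 with wild-type libraries only, and 96 and 48 without WT_late_1; the cause of the gap to limma was not tested. The last 2, edgeR with wild-type libraries only and a limma fit without both WT_late_1 and WT_early_6 (0 and 0) were chosen after seeing the data. The interaction had 0 limma calls and 96 in DESeq2. Leaving out 1 library, Bptf ran from 0.04 to 0.19 (exact p 0.171 to 0.81) and Myc from -0.74 to -0.06 (exact p 0.181 to 0.867). The 24 genes named by p kept their sign in 648 of 648 recomputed values. They were picked by p in these same libraries, so a kept sign is no independent test of them. Of the recomputed values 60 passed a threshold that the main limma fit had not, 1 with log2 weeks of onset and the rest in DESeq2. Of 891 list medians 885 moved by less than the spread; the ribosomal median was 0.10 under quantile normalisation, and the salivary gland median was -7.11 and -7.35 with edgeR and DESeq2, -7.08 and -7.36 with wild-type libraries only, and -9.17 without WT_late_1. No paired analysis was possible because the numbers only name libraries in accession order. Depth limits genes near 1 read, such as the Hox genes.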

Other observations

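A few further genes separated the groups without overlap and were picked after their values were seen. None was called by limma, and Haao, Il1r2, Syngr2 and Nid2 were called in the authors' deposited table. Haao and Syngr2 lost the call in DESeq2 on the wild-type libraries without WT_late_1. Haao, an enzyme of tryptophan breakdown on the way to NAD, had 354, 599, 207, 197 and 219 in WT_late libraries, against 48.1, 124 and 164 in WT_early libraries (1.41 ± 0.59, SE). Il1r2, the decoy receptor for interleukin 1, had 24.9, 115, 27.7, 39.9 and 17.7 in WT_late libraries, against 3.56, 8.01 and 17.2 in WT_early libraries, and its difference of 2.00 stood beside -0.39 in Bptf+/delta tumours (unadjusted limma interaction p 0.0213, adjusted p 0.706). Syngr2, a vesicle membrane protein gene, had 2478, 4948, 1272, 1319 and 1254 in WT_late libraries, against 787, 904 and 1107 in WT_early libraries (1.05 ± 0.31, SE). Spi1, which encodes the myeloid and B cell factor PU.1, had 1602, 1059, 902, 737 and 747 in WT_late libraries, against 379, 650.4 and 712 in WT_early libraries, a difference of 0.66 that was 0.48 without WT_late_1. Nid2, a basement membrane nidogen, was lower in every late tumour, with 77.5, 45.9, 60.2, 38.7 and 68.3 in WT_late libraries, against 119, 198 and 439.7 in WT_early libraries (-1.89 ± 0.66, SE). In Bptf+/delta tumours the Nid2 difference on the log2(value + 1) scale was -2.68.

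The constant-region genes Ighm and Igha overlapped between the onset classes. Ighm, the IgM heavy chain, had 16809, 4949, 15269, 25585 and 16024 in WT_late libraries, against 4729, 21276 and 25582 in WT_early libraries. Igha, the IgA heavy chain of switched cells, had 488, 40898, 212, 284 and 36.5 in WT_late libraries, against 8.70, 186 and 8668 in WT_early libraries. The highest Igha value was that of WT_late_2.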
